A study of Mus musculus with 24 samples.

Results

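GABA-A receptor subunit genes were followed in the CA1 region of the mouse hippocampus during the first days after status epilepticus (SE). The 7 genes Gabra2, Gabra3, Gabra4, Gabra5, Gabrb1, Gabrb2 and Gabrd were taken by their symbols from the 18647 genes of the count table, and all 7 passed the filter on low counts that left 18153 genes for testing. The animals were C57Bl/6N mice of at least 60 days. SE mice received 1 mg/kg scopolamine methyl nitrate, then 335 mg/kg pilocarpine hydrochloride and, during SE, 4 mg/kg diazepam, and only those that developed SE were used. Control mice (Ctr) had the same scopolamine and diazepam with saline in place of pilocarpine, so that both arms carried a drug that binds the GABA-A receptor. CA1 was microdissected from slices and its poly(A) RNA sequenced at 12, 36 and 72 h in controls and, in SE mice, also at 6 and 24 h, with 3 libraries in each of the 8 groups and 24 in all. The question of the design was how early mRNA levels in CA1 change after SE.

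GABA-A receptors are pentameric chloride channels that GABA opens, and most of them join alpha and beta subunits with a gamma or a delta subunit. The alpha subunit sets much of the response to benzodiazepines and the place of the receptor in the cell: receptors with the alpha2 subunit are common at synapses, and those with alpha5 are abundant outside synapses on the dendrites of CA1 pyramidal cells. The delta subunit, partnered in the forebrain mostly with alpha4, belongs to receptors outside synapses that carry a steady (tonic) current, and it is known above all from dentate granule cells and some interneurons.

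In the GENCODE annotation of GRCm39, 3 of the genes lie close together on chromosome 5: Gabra2 (ENSMUSG00000000560.10, minus strand, chr5:71114573-71253662), Gabra4 (ENSMUSG00000029211.12, minus strand, chr5:71721738-71815722) and Gabrb1 (ENSMUSG00000029212.12, plus strand, chr5:71815456-72319431). Gabra4 and Gabrb1 are read away from each other and their spans share 267 bases, of which 101 are exonic in both. The library kit does not mark strand, so reads in such stretches cannot be told apart. Gabra5 (ENSMUSG00000055078.8) lies at chr7:57055164-57240831 on the minus strand. Gabra3 (ENSMUSG00000031343.14) lies at chrX:71476275-71700723 on the minus strand, Gabrb2 (ENSMUSG00000007653.13) at chr11:42310493-42523417 on the plus strand and Gabrd (ENSMUSG00000029054.9) at chr4:155469407-155482872 on the minus strand.

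RefSeq promoter windows, which run from 250 bases before to 50 after a transcript start, were found for 6 of the 7 genes, 10 windows in all. Of these, 4 are printed: that of Gabra5, which was lower at all 5 times, those of the head-to-head pair Gabra4 and Gabrb1, and that of Gabrb2, which like Gabrb1 held a match to a motif searched for. Each runs 5′ to 3′ along its gene, with capitals on matches on either strand to GCGNGGGCG, a search pattern that left a base of the Egr motif open. The windows matched GRCm39 exactly at chr7:57159758-57160057 (Gabra5, minus strand), chr5:71815602-71815901 (Gabra4, minus strand), chr5:71815014-71815313 (Gabrb1, plus strand) and chr11:42311017-42311316 (Gabrb2, plus strand).
Gabra5: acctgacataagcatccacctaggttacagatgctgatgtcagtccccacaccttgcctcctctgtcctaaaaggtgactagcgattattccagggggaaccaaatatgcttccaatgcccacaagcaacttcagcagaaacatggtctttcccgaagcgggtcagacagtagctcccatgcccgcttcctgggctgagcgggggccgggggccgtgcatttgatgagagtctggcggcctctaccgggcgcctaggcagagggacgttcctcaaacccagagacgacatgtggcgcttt
Gabra4: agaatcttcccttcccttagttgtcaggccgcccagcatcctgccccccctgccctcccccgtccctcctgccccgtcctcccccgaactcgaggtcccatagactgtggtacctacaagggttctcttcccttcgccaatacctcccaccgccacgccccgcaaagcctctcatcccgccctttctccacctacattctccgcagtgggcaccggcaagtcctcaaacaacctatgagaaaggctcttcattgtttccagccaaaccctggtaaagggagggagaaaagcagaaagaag
Gabrb1: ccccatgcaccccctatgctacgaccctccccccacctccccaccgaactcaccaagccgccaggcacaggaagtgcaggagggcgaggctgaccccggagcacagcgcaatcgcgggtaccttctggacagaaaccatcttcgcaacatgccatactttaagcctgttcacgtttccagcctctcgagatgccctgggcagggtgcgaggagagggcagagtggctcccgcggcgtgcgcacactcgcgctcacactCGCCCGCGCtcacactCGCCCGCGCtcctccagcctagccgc
Gabrb2: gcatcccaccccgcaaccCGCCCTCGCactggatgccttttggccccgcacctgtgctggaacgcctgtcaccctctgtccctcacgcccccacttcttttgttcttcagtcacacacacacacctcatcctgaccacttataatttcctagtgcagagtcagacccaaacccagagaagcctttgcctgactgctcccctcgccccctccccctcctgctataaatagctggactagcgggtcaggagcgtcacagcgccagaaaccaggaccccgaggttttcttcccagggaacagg
The Gabrb1 window held matches to this Egr pattern at positions 259 and 275, counted from its 5′ end, and the Gabrb2 window held a match at position 19. N stood for any base in the search: read along the motif, it was C in the Gabrb1 matches and A in the Gabrb2 match. Binding of an Egr factor was not tested. A match stood in 5.55% of all 32851 promoter windows. Neither the cyclic AMP response element TGACGTCA, present in 1.79% of all windows, nor the AP-1 motif TGANTCA, present in 7.81%, was found in any of the 10 windows. All motifs were searched on both strands.

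Libraries held 2663936 to 30133731 counted reads with a median of 13521590. The lowest count of any of the 7 genes was 37, for Gabrd. Levels are given below as CPM, counts scaled to library size with TMM normalisation. A gene passed the test at an adjusted p of at most 0.05 and was called a differentially expressed gene (DEG) when its Log2FC was also at least 0.66 in size against control, or 1 between SE times. All 8 neuron markers (Rbfox3, Snap25 and others) and all 7 CA1 pyramidal cell markers (Wfs1, Mpped1, Fibcd1 and others) were detected in every library. Their summed level moved with the groups: neuron markers were at 6940 to 9416 CPM in control libraries and at 5050 to 5400 CPM in the SE 72 h libraries, and CA1 markers at 880 to 1672 CPM in controls and 348.3 to 982.7 CPM in SE libraries. Within controls, summed CA1 markers were higher in Ctr 36 h (1585 to 1672 CPM) than in Ctr 12 h (1082 to 1268 CPM) and Ctr 72 h (880 to 1195 CPM). Single CA1 markers did not all follow this sum. Mean Wfs1 was at 364 CPM in SE 36 h against 166 CPM in Ctr 36 h, whereas every other CA1 marker was lower there after SE. In Ctr 12, 36 and 72 h, mean Fibcd1 was at 196, 516 and 234 CPM and mean Wfs1 at 242, 166 and 104 CPM. Of the 8 neuron markers, 4, 3 and 4 passed the test downwards at 12, 36 and 72 h. Summed astrocyte markers rose from 1313 to 1724 CPM in controls to 9442 to 11130 CPM at 72 h, where 4 of 5 passed the test, and microglia markers from 250.1 to 334.6 CPM to 979.3 to 1423 CPM, where all 6 did. Of all genes 18.7% passed upwards at 72 h. Most of the astrocyte sum at 72 h was Gfap, with a mean of 8150 CPM against 254 to 269 CPM in control groups. Means of Aqp4 and Aldh1l1 were 626 and 264 CPM against at most 130 and 66.2 CPM. Those of Slc1a3 and Gja1 were 1050 and 342 CPM against at most 830 and 297 CPM. In bulk tissue, fewer cells of a type and less RNA per cell cannot be told apart, and what part of the results below moved with cell composition was not tested. In these markers 3 libraries stood apart and are set aside in turn below: Ctr 12 h replicate 3, with 305.1 CPM of CA3 pyramidal cell markers against at most 158.9 CPM elsewhere, SE 72 h replicate 1, with 329.2 CPM of dentate granule cell markers and the lowest CA1 markers, and Ctr 72 h replicate 2, with 1924 CPM of sensory ganglion markers. Markers of the sensory ganglion were above 300 CPM in 6 libraries: SE 6 h replicate 3, SE 12 h replicate 1, SE 36 h replicate 3, SE 72 h replicates 1 and 2, and Ctr 72 h replicate 2.

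**Figure D1:**
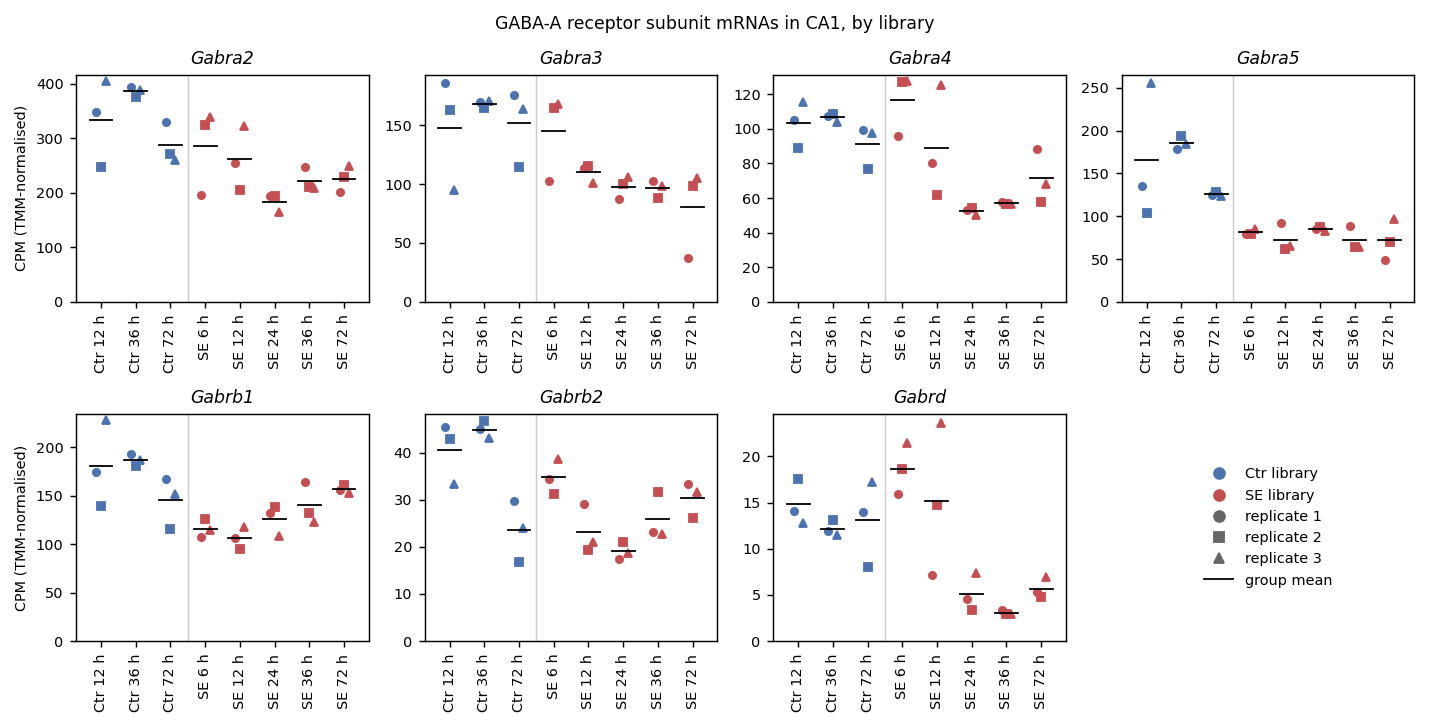
CPM of each subunit gene in every library (points, with shapes for the replicate number, which the main test did not use as a pairing) with the group mean (line), controls in blue and SE libraries in red. Gabra5 lies below every control library in all 5 SE groups, whereas Gabrd overlaps with controls at 6 and 12 h and is at 2.9 to 3.3 CPM at 36 h.

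The order of the subunits in control CA1 was led by the alpha genes. Divided by exon length, the mean level over the 9 control libraries was highest for Gabra2 at 37.42 ± 6.86 CPM per kb (SD, n = 9), followed by Gabra3 at 22.61 ± 4.37, Gabra5 at 17.61 ± 5.33, Gabrb1 at 10.12 ± 1.93, Gabra4 at 9.97 ± 1.16, Gabrb2 at 3.31 ± 0.99 and Gabrd at 2.14 ± 0.47 CPM per kb. Gabra2 did not overlap with Gabra3 in any control library, nor Gabra4 with Gabrb2. The other neighbours in this order overlapped in their ranges: Gabra3 (13.77 to 26.91) with Gabra5 (11.55 to 28.31), Gabra5 with Gabrb1, Gabrb1 with Gabra4, and Gabrb2 with Gabrd.

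None of the 7 genes rose against control at any time, whereas 23.2%, 20.4%, 23.9%, 17.2% and 18.7% of all genes passed the test upwards from the first time to the last. At 6 h after SE, 2 of the 7 passed the test downwards and 1 was a DEG (over all genes 16.7% passed downwards and 6.21% were DEGs with lower levels). At 12 h, 3 of 7 passed and all 3 were DEGs, against 18.1% and 11.4% of all genes. At 24 h all 7 passed and 5 were DEGs, against 17.5% and 9.21%. At 36 h all 7 passed and 6 were DEGs, against 14.5% and 8.91%, and at 72 h 3 of 7 passed and were DEGs, against 9.41% and 4.21%. The Ctr 36 h libraries, behind the highest of these counts, had the highest summed CA1 markers of the controls, whose part in the result was not tested. Against the mean of all 3 control groups 4 genes were DEGs at 36 h. In the order of the 5 times, the median Log2FC of the 7 genes was -0.10, -0.42, -0.87, -0.80 and -0.35, where that of all genes was 0.06, 0.01, 0.04, 0.00 and 0.10. Every SE library lay below every control library of the comparison for 1, 3, 4, 7 and 4 of the 7 genes, against 9.27%, 23.2%, 10.0%, 26.2% and 13.4% of all genes. The 12, 36 and 72 h groups were each compared with their own controls, while 6 and 24 h were both compared with the mean of the same 3 control groups and so are not independent of each other.

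**Figure D2:**
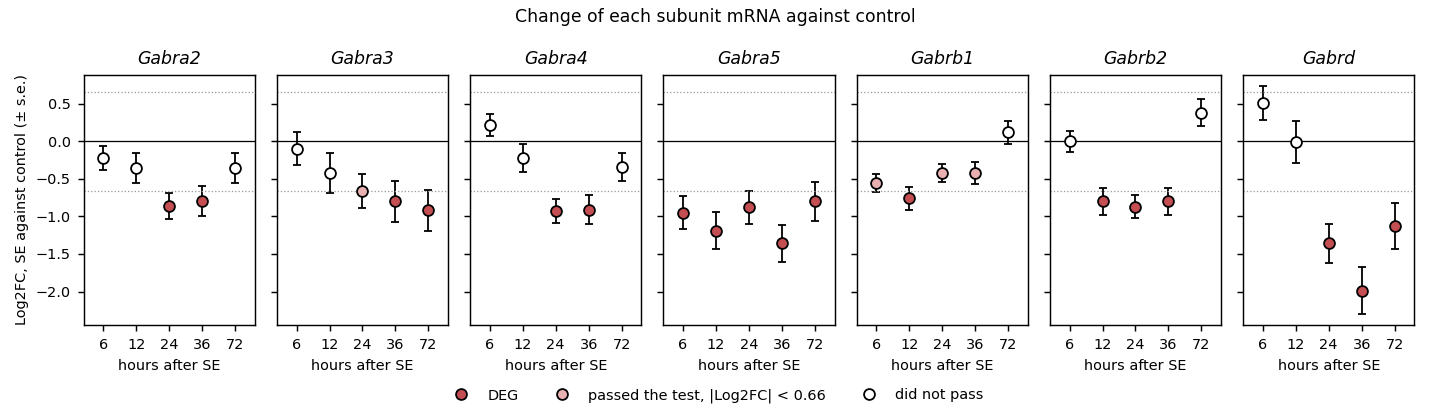
Log2FC of SE against control with its standard error for each gene at 5 times after SE (6 and 24 h against all 3 control groups averaged, the others against the control group of the same time). Filled red points are DEGs, pale points passed the test with a smaller change, open points did not pass; dotted lines mark 0.66 in either direction. Gabra5 is a DEG at all 5 times and Gabrd at 24, 36 and 72 h.

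Gabra5, whose subunit marks the extrasynaptic receptors of CA1 dendrites, was lower after SE at every time. In controls it was at 135.9, 104.2 and 255.3 CPM at 12 h, 178.7, 193.9 and 184.9 CPM at 36 h and 124.3, 128.2 and 123.7 CPM at 72 h. After SE it was at 79.3, 79.6 and 84.9 CPM at 6 h, 91.5, 61.6 and 64.8 CPM at 12 h, 85.6, 87.6 and 83.2 CPM at 24 h, 88.5, 64.4 and 64.0 CPM at 36 h and 49.3, 69.4 and 96.3 CPM at 72 h. All 15 SE libraries lay below all 9 control libraries.
Gabra5 was thus at 51.9% of control at 6 h (Log2FC -0.95, s.e. 0.22, adjusted p = 0.00179), 43.9% at 12 h (Log2FC -1.19, s.e. 0.25, adjusted p = 0.00107), 54.5% at 24 h (Log2FC -0.88, s.e. 0.22, adjusted p = 0.00293), 38.9% at 36 h (Log2FC -1.36, s.e. 0.25, adjusted p = 0.000368) and 57.3% at 72 h (Log2FC -0.80, s.e. 0.26, adjusted p = 0.0237). It was the only one of the 7 genes to be a DEG at all 5 times, which 108 genes or 0.595% of those tested were. No step between consecutive SE times passed the test for Gabra5, with Log2FC from -0.24 to 0.24.
With the range of the number in the sample description in the fit, the 6 h value was under the DEG limit (Log2FC -0.58, adjusted p = 0.0126). The size of the Gabra5 change at 12 h rested in part on Ctr 12 h replicate 3, the library with high CA3 markers: without it the Log2FC was -0.72 and still a DEG. At 72 h the call was lost without SE 72 h replicate 1 (Log2FC -0.59, adjusted p = 0.117), SE 72 h replicate 2 (Log2FC -0.78, adjusted p = 0.0655) or Ctr 72 h replicate 2 (Log2FC -0.79, adjusted p = 0.0535), without the 6 libraries high in sensory ganglion markers (Log2FC -0.36, adjusted p = 0.543) and when that range entered the fit (Log2FC 0.02, adjusted p = 0.97). The Ctr 72 h libraries carried numbers 167 to 169 and the SE 72 h libraries 104, 119 and 120, so that at this time SE and number range cannot be told apart. The SE 24 h libraries carried 97 to 99, and every control number was 109 or higher. For all 7 genes SE and number range therefore cannot be told apart at 24 h either.

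Gabra2, the most abundant of the 7 and a synaptic alpha subunit, passed the test at 24 and 36 h only. Its level was 348.7, 247.2 and 404.5 CPM in Ctr 12 h, 393.7, 375.7 and 387.9 CPM in Ctr 36 h and 330.2, 271.3 and 260.6 CPM in Ctr 72 h. SE libraries were at 195.6, 324.7 and 338.2 CPM at 6 h, 255.0, 205.5 and 322.9 CPM at 12 h, 193.4, 193.4 and 164.4 CPM at 24 h, 246.7, 209.5 and 209.3 CPM at 36 h and 200.6, 228.0 and 248.8 CPM at 72 h. They overlapped with their controls at 6 and 12 h and lay below them at 24, 36 and 72 h.
Gabra2 was a DEG at 24 h (55.1% of control, Log2FC -0.86, s.e. 0.17, adjusted p = 0.000402) and 36 h (57.5%, Log2FC -0.80, s.e. 0.20, adjusted p = 0.00381). At 72 h its libraries did not overlap with Ctr 72 h, yet the Log2FC of -0.35 (s.e. 0.20) did not pass the test (adjusted p = 0.194). Such a separation was seen in 13.4% of all genes at 72 h and in 4 of these 7. At 6 and 12 h the Log2FC was -0.22 and -0.36, with adjusted p of 0.293 and 0.16. A later fall was not shown by test: SE 24 h against SE 12 h had a Log2FC of -0.51 (adjusted p = 0.111). The SE effect at 36 h minus that at 12 h was -0.44 (adjusted p = 0.386). Against the mean of all 3 control groups, the Log2FC at 36 h was -0.59 (adjusted p = 0.00772), under the DEG limit.

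Gabra4, the usual alpha partner of the delta subunit, also passed the test at 24 and 36 h only, with a narrow spread at these times. Controls were at 105, 89.2 and 115.7 CPM at 12 h, 107.5, 108.6 and 103.8 CPM at 36 h and 99.4, 76.6 and 97.9 CPM at 72 h. After SE the libraries were at 95.7, 127.0 and 127.6 CPM at 6 h, 80.4, 61.6 and 125.3 CPM at 12 h, 53.2, 54.1 and 50.4 CPM at 24 h, 57.6, 56.4 and 56.6 CPM at 36 h and 88.5, 58.0 and 67.9 CPM at 72 h. The 6 libraries of 24 and 36 h lay below every control, and those of the other times overlapped with controls.
Gabra4 was at 52.6% of control at 24 h (Log2FC -0.93, s.e. 0.16, adjusted p = 0.000156) and at 53.3% at 36 h (Log2FC -0.91, s.e. 0.19, adjusted p = 0.00111). At 6, 12 and 72 h its Log2FC of 0.22, -0.22 and -0.34 did not pass (adjusted p = 0.261, 0.378 and 0.195). The Gabra4 SE effect at 36 h minus that at 12 h was -0.69 and did not pass either (s.e. 0.27, adjusted p = 0.153). Between 12 and 24 h after SE Gabra4 fell by 0.75 on the log2 scale (s.e. 0.19, adjusted p = 0.0193), as 3.84% of all genes did by this test, which is under the limit of 1 used between SE times. Without SE 12 h replicate 3 the Log2FC was -0.44 (adjusted p = 0.126), and the adjusted p also exceeded 0.05 without SE 24 h replicate 1 (0.0578) or 3 (0.0588) and with only these groups in the fit (0.138).

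Gabra3, an X-linked alpha subunit gene, passed the test at 24, 36 and 72 h, with calls that depended on single libraries. Control libraries were at 185.8, 163.1 and 95.1 CPM at 12 h, 169.8, 164.8 and 170.7 CPM at 36 h and 176.0, 114.9 and 164.2 CPM at 72 h, and the 2 low values belong to libraries that stood apart in other markers, Ctr 12 h replicate 3 and Ctr 72 h replicate 2. SE libraries were at 102.5, 164.7 and 168.2 CPM at 6 h, 113.9, 115.1 and 101.1 CPM at 12 h, 87.2, 100.3 and 106.4 CPM at 24 h, 102.6, 88.7 and 98.6 CPM at 36 h and 37.2, 98.5 and 105.4 CPM at 72 h. The value of 37.2 CPM came from SE 72 h replicate 1, the library with the lowest CA1 markers.
Gabra3 was a DEG at 36 h (57.4% of control, Log2FC -0.80, s.e. 0.27, adjusted p = 0.0275) and 72 h (52.8%, Log2FC -0.92, s.e. 0.27, adjusted p = 0.0157) and passed at 24 h just under the limit (Log2FC -0.66, s.e. 0.23, adjusted p = 0.0254). At 6 and 12 h its Log2FC was -0.10 and -0.42 (adjusted p = 0.761 and 0.227). Without Ctr 12 h replicate 3 the 12 h value was -0.66. An onset after 12 h was not shown: SE 24 h against SE 12 h had a Log2FC of -0.17 (adjusted p = 0.744). The SE effect at 36 h minus that at 12 h was -0.38 (adjusted p = 0.617). At 36 h the adjusted p exceeded 0.05 when any library of these groups was left out, between 0.0531 and 0.0832 with the Log2FC between -0.74 and -0.84. At 72 h the Log2FC was -0.56 without SE 72 h replicate 1 (adjusted p = 0.0707) and -0.79 without Ctr 72 h replicate 1 (adjusted p = 0.0646).

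Gabrb1 and Gabrb2, which encode beta subunits needed for the GABA binding site and for surface delivery of the receptor, were lower at 12 and 36 h and did not pass the test at 72 h. Gabrb1 was at 174.1, 139.1 and 227.9 CPM in Ctr 12 h, 192.9, 180.6 and 186.6 CPM in Ctr 36 h and 167.4, 116.1 and 151.9 CPM in Ctr 72 h. After SE it was at 107.9, 125.6 and 114.4 CPM at 6 h, 106.4, 94.9 and 118.2 CPM at 12 h, 131.8, 138.7 and 108.1 CPM at 24 h, 164.5, 132.3 and 123.1 CPM at 36 h and 156.2, 161.6 and 153.1 CPM at 72 h. The SE and control libraries were separate at 12 and 36 h and overlapped at 72 h.
Gabrb1 was a DEG at 12 h (58.9% of control, Log2FC -0.76, s.e. 0.15, adjusted p = 0.000444) and passed the test below the DEG limit at 6 h (Log2FC -0.55, s.e. 0.12, adjusted p = 0.00159), 24 h (Log2FC -0.42, s.e. 0.12, adjusted p = 0.00926) and 36 h (Log2FC -0.42, s.e. 0.15, adjusted p = 0.0345). At 72 h its Log2FC was 0.12 (s.e. 0.15, adjusted p = 0.586). Without Ctr 12 h replicate 3 the 12 h value was -0.56 (adjusted p = 0.00394), under the DEG limit. The SE effect at 72 h exceeded that at 12 h by 0.89 (s.e. 0.21, adjusted p = 0.00542), as a DEG among the 12.3% of all genes with a higher effect at 72 h, and the call was lost without the 3 libraries that stood apart (0.53, adjusted p = 0.0986).

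Gabrb2 was at 45.4, 42.9 and 33.3 CPM in Ctr 12 h, 45.0, 46.7 and 43.0 CPM in Ctr 36 h and 29.6, 16.9 and 24.0 CPM in Ctr 72 h. After SE it was at 34.4, 31.2 and 38.7 CPM at 6 h, 29.0, 19.3 and 21 CPM at 12 h, 17.3, 21.1 and 18.6 CPM at 24 h, 23.2, 31.5 and 22.8 CPM at 36 h and 33.3, 26 and 31.5 CPM at 72 h. SE libraries were below controls of the same time at 12 and 36 h and overlapped with the lower Ctr 72 h libraries at 72 h.
Gabrb2 was a DEG at 12 h (57.5% of control, Log2FC -0.80, s.e. 0.18, adjusted p = 0.00138), 24 h (54.9%, Log2FC -0.87, s.e. 0.15, adjusted p = 0.00014) and 36 h (57.4%, Log2FC -0.80, s.e. 0.18, adjusted p = 0.0015). At 6 h the Log2FC was 0.00 (s.e. 0.14) and at 72 h 0.38 (s.e. 0.18, adjusted p = 0.129). The SE effect at 72 h exceeded that at 12 h by 1.18 (s.e. 0.25, adjusted p = 0.0029) and that at 36 h by 1.18 (s.e. 0.25, adjusted p = 0.012), where 3.69% of all genes had such a higher effect.
Gabrb2 was also the only one of the 7 genes called between control groups: Ctr 72 h was below Ctr 12 h (Log2FC -0.79, s.e. 0.18, adjusted p = 0.038; 0.606% of all genes were DEGs in this direction) and below Ctr 36 h (Log2FC -0.94, s.e. 0.18, adjusted p = 0.0162; 1.26%). Without Ctr 72 h replicate 2 the 2 values were -0.58 (adjusted p = 0.295) and -0.73 (adjusted p = 0.131), and the difference in SE effect between 72 and 36 h was 0.96 (adjusted p = 0.054). Against the mean of all 3 control groups, Gabrb2 passed the test at 12 h (Log2FC -0.58, adjusted p = 0.00294) and 36 h (Log2FC -0.44, adjusted p = 0.0237) without reaching the DEG limit.

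Gabrd, the delta subunit gene of tonic receptors, had the largest change of the 7 and a delayed onset. It was the least abundant, at 14.1, 17.6 and 12.8 CPM in Ctr 12 h, 11.9, 13.2 and 11.5 CPM in Ctr 36 h and 13.9, 8.0 and 17.2 CPM in Ctr 72 h. After SE it was at 15.9, 18.6 and 21.5 CPM at 6 h, 7.1, 14.8 and 23.6 CPM at 12 h, 4.6, 3.4 and 7.4 CPM at 24 h, 3.3, 2.9 and 2.9 CPM at 36 h and 5.3, 4.8 and 7.0 CPM at 72 h. The 12 h libraries were spread from below to above all controls, and the 9 libraries of 24, 36 and 72 h were below every control library.
The Gabrd Log2FC was 0.51 at 6 h (s.e. 0.23, adjusted p = 0.0806) and -0.01 at 12 h (s.e. 0.28, adjusted p = 0.986). Gabrd was then lower at 24 h (39% of control, Log2FC -1.36, s.e. 0.26, adjusted p = 0.000373), lowest at 36 h (25.1%, Log2FC -1.99, s.e. 0.31, adjusted p = 6.16e-05) and still lower at 72 h (45.6%, Log2FC -1.13, s.e. 0.31, adjusted p = 0.00995). Between 12 and 24 h after SE Gabrd fell by 1.53 on the log2 scale (s.e. 0.30, adjusted p = 0.00499), the only DEG among the 7 genes between consecutive SE times, where 1.72% of all genes were DEGs in this direction. The lowest SE 12 h library and the highest SE 24 h library overlapped, and the Log2FC ranged from -1.07 to -1.90 with each library left out. With only these groups in the fit the call was lost (Log2FC -1.59, adjusted p = 0.0778). The SE effect at 36 h was lower than that at 12 h by 1.99 (Log2FC -1.99, s.e. 0.42, adjusted p = 0.0151), and 1.38% of all genes had such a lower effect.
From 36 to 72 h Gabrd had a Log2FC of 0.90 (s.e. 0.31, adjusted p = 0.0753) with all SE 72 h libraries above those of 36 h, as in 17.3% of all genes. The 72 h call against control was lost without Ctr 72 h replicate 3 (Log2FC -0.93, adjusted p = 0.058) and with limma-voom (Log2FC -0.98, adjusted p = 0.072). Markers of dentate granule cells, which are rich in this subunit, were at 40.12 to 124.4 CPM in controls. After SE they were at 74.25 to 168.7 CPM at 6 h and 66.49 to 173.9 CPM at 12 h. Later they were at 63.5 to 69.79 CPM at 24 h, 78.12 to 176.8 CPM at 36 h and 54.27 to 329.2 CPM at 72 h. Much of this sum could be Pdzd2, with group means of 28.2 to 36.6 CPM in controls and 48.2 CPM at 24 h after SE. Prox1, C1ql2 and Dsp were then at 15.7, 2.91 and 0.169 CPM. At 12 h, replicate 3, highest in Gabrd, had 173.9 CPM of these markers, and replicate 1, lowest in Gabrd, had 167.4 CPM. The part of dentate cells in the Gabrd values was not tested.

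Of the summed CPM per kb of the 7 genes, Gabra2 held 35.44 ± 3.34% to 37.17 ± 0.69% (SD, n = 3) in the control groups and 34.46 ± 2.26% to 39.69 ± 3.37% after SE. Gabrb1 held 9.53 ± 0.66% to 10.2 ± 1.14% in controls, 8.11 ± 1.33% at 6 h and 14.55 ± 2.22% at 72 h. Gabrd held 1.68 ± 0.13% in Ctr 36 h and 0.77 ± 0.01% in SE 36 h, and Gabra5 held 17.81 ± 0.83% and 12.54 ± 1.23% in the same groups. These shares are descriptions and were not tested.

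**Figure D3:**
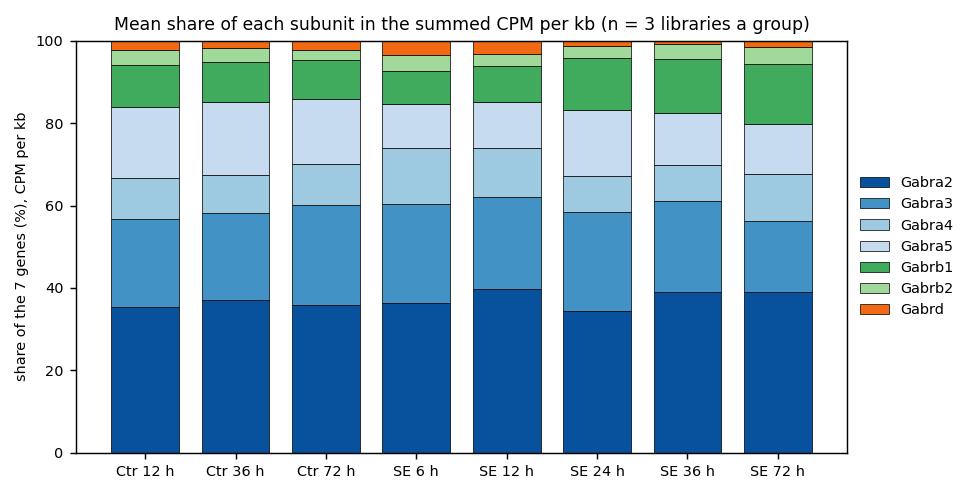
Mean share (%) of each subunit gene in the summed CPM per kb of exon of the 7 genes, by group (n = 3 libraries each). The green Gabrb1 segment widens from 8.11% at 6 h to 14.55% at 72 h after SE, and the orange Gabrd segment is narrowest at 36 h with 0.77%.

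Summed neuron markers lay below all controls from 12 to 72 h after SE and overlapped with them at 6 h (6505 to 8446 CPM). Each gene was also set against this sum, as a description without a test. Per 1000 CPM of neuron markers, Gabra5 was at 15 to 27.1 in controls. SE libraries were at 10 to 12.2 (6 h), 10.2 to 14.8 (12 h), 12.5 to 15.9 (24 h), 9.58 to 15.6 (36 h) and 9.14 to 19.1 (72 h), the last overlapping with Ctr 72 h at 15.2 to 16.8. On this scale 6 of 7 genes lay below Ctr 36 h in every SE 36 h library (11.6% of all genes did), all but Gabrb1. At 12 h it was 1 of 7, Gabra5 (7.20%), at 6 h 1 of 7, again Gabra5 (4.36%), and at 24 and 72 h none of 7 (2.15% and 1.33%). Ctr 72 h replicate 2, high in sensory ganglion markers, had the lowest control value for Gabra2, Gabra4, Gabrb1, Gabrb2 and Gabrd on this scale. At 24 h Gabra4 (at most 9.91) and Gabrd (at most 1.1) overlapped with this control library alone (9.1 and 0.952). So did Gabra3 (at most 20.9) and Gabrd (at most 1.38) at 72 h (13.7 and 0.952). What its ganglion markers added to its neuron marker sum of 8415 CPM was not tested.
Gabrb1 and Gabrb2 lay above Ctr 72 h in every SE 72 h library on this scale, as 50.5% of all genes did: Gabrb1 was at 28.9 to 30.3 against 13.8 to 22.6, and Gabrb2 at 4.86 to 6.24 against 2.01 to 4. Gabra4 lay above all controls at 6 h, at 14.7 to 16.3 against 9.1 to 14.5, as 13.1% of all genes did. Gabrd was at 0.435 to 0.587 at 36 h against 1.5 to 1.76 in Ctr 36 h.

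**Figure D4:**
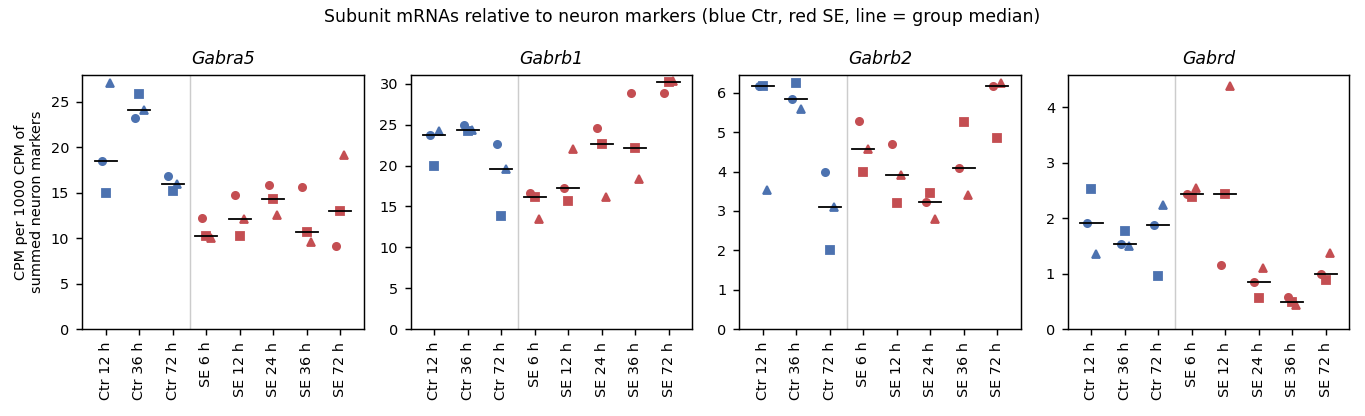
CPM of 4 subunit genes per 1000 CPM of 8 summed neuron markers in each library (points, shapes as replicate numbers; line, group median), controls in blue and SE in red. Gabra5 and Gabrd at 36 h stay below Ctr 36 h on this scale, and Gabrb1 at 72 h (28.9 to 30.3) is above Ctr 72 h.

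Over the 24 libraries each gene had its own closest companions among 13726 genes, by Pearson r of log2 CPM. Gabra2 was most like Camk2a (r = 0.888), the alpha chain of a kinase abundant in excitatory neurons, and Gabra3 was most like Mpped1 (r = 0.927), one of the CA1 markers. Gabra5 was most like Dlgap1 (r = 0.934), a scaffold of the excitatory postsynapse, and Ppp3r1 (r = 0.923), the regulatory chain of calcineurin. Gabra4 was most like Calhm5 (r = 0.906), Gabrb1 like Raver2 (r = 0.912), Gabrb2 like Ofd1 (r = 0.841) and Gabrd like Rgs12 (r = 0.900).
Among the 7 genes themselves, the closest pair was Gabra4 and Gabrd (r = 0.827, with 0.345 over the 9 control and 0.812 over the 15 SE libraries), followed by Gabra2 and Gabra4 (r = 0.810, with 0.802 and 0.783). The head-to-head neighbours Gabra4 and Gabrb1 had an r of 0.300 over all libraries, 0.967 over the 9 control libraries and -0.231 over the 15 SE libraries. These correlations share the libraries and their group differences and are given without a test.

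Among the other GABA-A subunit genes, 9 of 12 were in the table and 8 were tested. Gabrg1, a gamma subunit gene, fell at 24 and 36 h (Log2FC -1.58 and -1.23, adjusted p = 6.36e-05 and 0.00271).
Gabre, the epsilon subunit gene, rose at all 5 times with Log2FC from 2.18 to 2.89, from very low counts: 0 to 11 reads in the 9 control libraries and 9 to 72 in the 15 SE libraries. In this list 2, 3, 4, 4 and 2 of the 8 genes passed downwards in the order of the 5 times, where 16.7%, 18.1%, 17.5%, 14.5% and 9.41% of all genes did. Upwards it was 2 at 6 h and 1 at each later time, where 23.2%, 20.4%, 23.9%, 17.2% and 18.7% of all genes passed, and the median Log2FC was -0.16, -0.36, -0.14, -0.72 and -0.30.

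Of the 21 genes for anchoring and trafficking of GABA-A receptors, 4, 7, 7, 7 and 5 passed the test downwards and 6, 4, 5, 4 and 4 upwards in the same order. Of all genes 16.7%, 18.1%, 17.5%, 14.5% and 9.41% passed downwards and 23.2%, 20.4%, 23.9%, 17.2% and 18.7% upwards, and the median Log2FC of the list stayed between -0.19 and 0.06. Gphn, the gephyrin scaffold of inhibitory synapses, passed at 6 and 12 h with Log2FC of -0.43 and -0.36 (adjusted p = 0.000674 and 0.00935) and was no DEG at any time. Shisa7, an auxiliary protein of the receptor, was lowest at 36 h (Log2FC -1.18, s.e. 0.15, adjusted p = 5.63e-06), and Hap1, which carries receptors back to the surface, fell at 6, 12, 24 and 36 h with Log2FC down to -1.44 at 24 h (s.e. 0.26, adjusted p = 0.000202). Rdx (radixin), the anchor of alpha5 receptors outside synapses, rose to a Log2FC of 0.78 at 72 h (s.e. 0.10, adjusted p = 6.76e-06), when Gabra5 itself was lower. Dbi, the source of peptides that bind the benzodiazepine site, rose at 72 h (Log2FC 0.94, s.e. 0.18, adjusted p = 0.000557), as did astrocyte markers.

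Among the genes of GABA synthesis, transport and breakdown, both a transporter and an enzyme of breakdown were lower over several times. Slc6a11 (GAT-3), the transporter of astrocytes, fell to Log2FC -0.99 at 12 h, -2.56 at 24 h (s.e. 0.26, adjusted p = 1.71e-07), -2.45 at 36 h (s.e. 0.28, adjusted p = 1.92e-06) and -0.95 at 72 h. Abat, which breaks GABA down, was a DEG at 24, 36 and 72 h with Log2FC of -0.82, -1.18 and -0.97. The synthetic enzymes Gad1 and Gad2 passed upwards at 6 h (Log2FC 0.58 and 0.64, adjusted p = 0.000415 and 0.000302), when interneuron markers, which include both, summed to 1010 to 1506 CPM against 588.1 to 927.6 CPM in controls. Mean Sst was then at 440 CPM against 133 to 218 CPM in control groups, and Npy at 65.9 against 28.6 to 39.8 CPM. Slc32a1, Pvalb, Vip and Lhx6 lay nearer controls, at 66.2, 29.4, 38 and 26.4 CPM against 53.8 to 61, 24.9 to 37.5, 28.4 to 31.9 and 20.3 to 22.8 CPM. At 72 h Gad2 was lower (Log2FC -0.50, adjusted p = 0.0192) and the vesicular transporter Slc32a1 was a DEG (Log2FC -0.82, s.e. 0.20, adjusted p = 0.004). At 24 h Gad1 and Gad2 again passed upwards (Log2FC 0.37 and 0.58, adjusted p = 0.0123 and 0.000633). Of the 9 genes 1, 4, 4, 4 and 5 passed downwards from the first time to the last (16.7%, 18.1%, 17.5%, 14.5% and 9.41% of all genes), and 3, 0, 3, 0 and 0 passed upwards (23.2%, 20.4%, 23.9%, 17.2% and 18.7%), with a list median Log2FC of 0.19, -0.24, 0.07, -0.25 and -0.41.
The GABA-B receptor gene Gabbr1 was a DEG at 36 h (Log2FC -0.67, s.e. 0.12, adjusted p = 0.000302), as was the auxiliary subunit gene Kctd12 (Log2FC -0.89, s.e. 0.24, adjusted p = 0.00696). Kctd12 passed the other way at 72 h (Log2FC 0.64, s.e. 0.24, adjusted p = 0.0498), the only upward call in this list. Of its 5 genes 0, 1, 2, 2 and 1 passed downwards in the order of times, where 16.7%, 18.1%, 17.5%, 14.5% and 9.41% of all genes did, with a median Log2FC from -0.67 to -0.07.

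Of 5 factors with known links to GABA-A subunit transcription, 4, 3, 4, 3 and 1 rose in the order of times (23.2%, 20.4%, 23.9%, 17.2% and 18.7% of all genes) and none fell, with a median Log2FC of 1.87, 1.87, 1.5, 1.1 and 0.21. Crem, whose short product ICER represses genes with cyclic AMP response elements, had its highest level at 6 h (Log2FC 2.71, s.e. 0.17, adjusted p = 7.28e-10). Bdnf, a neurotrophin, was at Log2FC 2.92, 2.89, 3.24 and 2.55 from 6 to 36 h, and Egr3, a transcription factor of the Egr family, rose at 6 and 24 h (Log2FC 1.74 and 1.5, adjusted p = 0.00246 and 0.00708). Rest, a repressor of neuronal genes, rose at all 5 times with Log2FC between 1.29 and 2.02. Creb1 did not pass at any time, with Log2FC from -0.21 to 0.24.

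**Figure D5:**
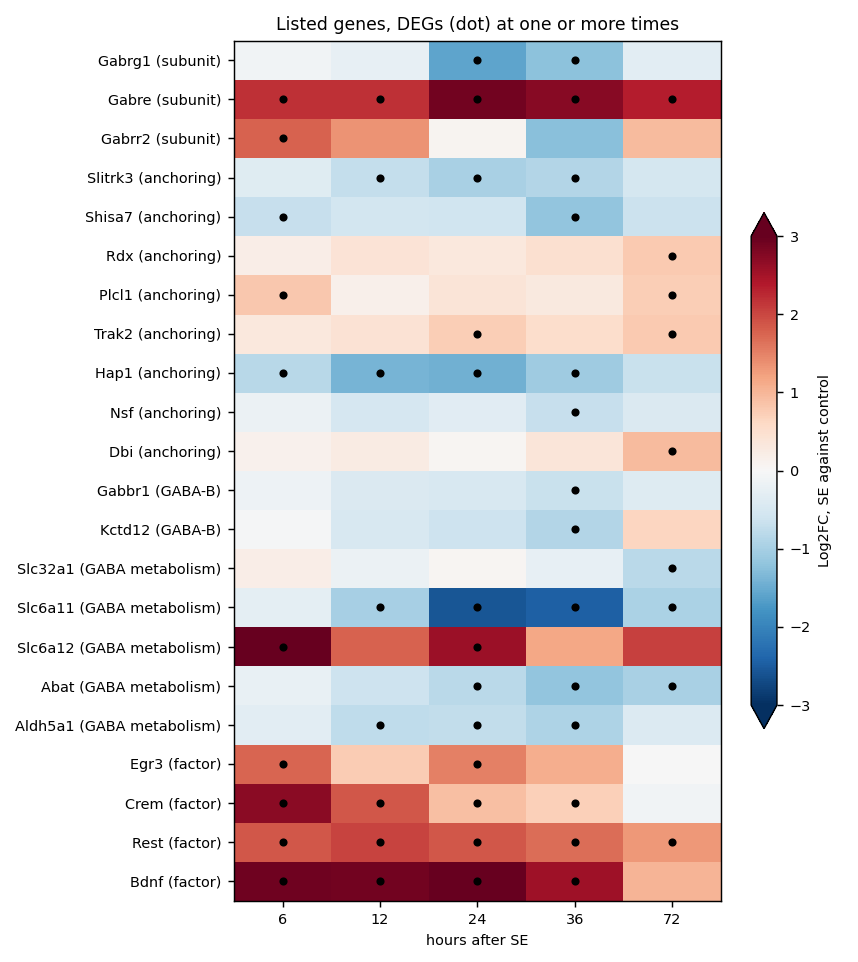
Log2FC of SE against control (colour) at 5 times for 22 listed genes of the GABA system and of linked factors that were DEGs (dots) at 1 or more times. The colour scale ends at 3 in either direction, and 2 cells exceed it; Gabre and Rest are red at all 5 times and Slc6a11 reaches -2.56 at 24 h.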

How the data were processed

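Gene counts from 24 mouse CA1 poly(A) RNA libraries were used. Per the labels and the study's methods, reads were trimmed (Trim Galore 0.6.6), aligned to GRCm39 (STAR 2.7.8a, SAMtools 1.10) and counted per gene (HTSeq 0.13.5); the deposited values are raw counts. Samples were grouped by treatment and time from their titles, and symbols came from GENCODE by Ensembl ID (18552 of 18647 genes matched). The 7 genes, the gene lists, the motifs and the tests were chosen with earlier results of these data known.

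Counts were tested with edgeR 4.0.16 (R 4.3.3): TMM, filterByExpr over 8 groups, quasi-likelihood fit of all 24 libraries with 1 RUVr factor of unwanted variation, and Benjamini-Hochberg adjustment over all 18153 genes. Tests were two-sided. All 7 genes were named; of the lists, genes that were a DEG at 1 or more times and genes the study's text names; as companions, the genes with the highest r. Some listed genes are not reported here by name, though the counts over lists include them. Gphn, Gad1 and Gad2 were named outside that rule after their values were seen. CPM per kb used the union of exons in GENCODE. The fit was tested on simulated data. No source used here says that the libraries of a group came from separate animals, so p-values measure the spread between libraries that is left after the RUVr factor. This factor was 0.3826, -0.7974 and 0.3736 in Ctr 72 h replicates 1, 2 and 3 and ran from -0.1358 to 0.1024 in all other libraries. It thus took up mainly spread among the Ctr 72 h libraries, which the p-values of the main test leave out. No 2 libraries of a group were near-identical (chi-square per degree of freedom of at least 4.77). Alternatives were DESeq2 1.42.0, limma-voom (limma 3.58.1), other scalings, filters and thresholds, no RUVr factor, the range of the sample numbers, a replicate block, only the groups compared, and leaving out libraries. The genes of the SE comparisons carry counts of 37 to 10462 per library, and Ctr 72 h is the shallowest group.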

Additional observations from a re-analysis of the deposited data

Results flagged for a closer look

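The SE effects of 3 genes differed between times by the interaction test in the fit over all genes. Gabrd had a lower SE effect at 36 h than at 12 h, by a Log2FC of -1.99 (s.e. 0.42, adjusted p = 0.0151): its SE libraries at 12 h ran from 7.1 to 23.6 CPM, beside Ctr 12 h at 12.8 to 17.6 CPM, and those at 36 h from 2.9 to 3.3 CPM, beside Ctr 36 h at 11.5 to 13.2 CPM. Gabrb1 had a higher SE effect at 72 h than at 12 h, by 0.89 (s.e. 0.21, adjusted p = 0.00542). Gabrb2 had a higher SE effect at 72 h than at 12 h, by 1.18 (s.e. 0.25, adjusted p = 0.0029), and than at 36 h, by 1.18 (s.e. 0.25, adjusted p = 0.012); its Ctr 72 h libraries, at 16.9 to 29.6 CPM, were lower than those of Ctr 36 h at 43.0 to 46.7 CPM.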

How the results depend on the processing

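Of 2387 values of single genes, 2293 kept their side of the threshold, 65 lost a call and 28 gained one. Most of the 2387 belong to results that were not called in the main test and had no call to lose, so 65 is not to be read as a share of 2387. Sign changed in 70 of those 2293, all of them values that were not called, and in 1 called value: Gabra5 at 72 h, with a Log2FC of 0.02 when the range of sample numbers was in the fit. Counts of DEGs among the 7 genes moved as follows. With a Log2FC limit of 1 there was 1 gene each at 12, 24 and 72 h, 2 at 36 h, none (0) at 6 h, 1 for the difference in effect between 72 and 12 h, and 0 for Ctr 72 h against either other control group. With no limit there were 2 at 6 h and 2 for 24 against 12 h, where a limit of 0.66 also gave 2. With the range of sample numbers, 6 h had 0 and the difference between 72 and 12 h had 4. With only the groups compared in the fit, 24 against 12 h had 0. The alternatives on groups of libraries and the mean of 3 control groups were chosen after seeing the data. Without the 3 libraries that stood apart, the difference between 72 and 12 h had 1 and that between 72 and 36 h had 0; without the 6 libraries high in sensory ganglion markers, 72 h against control had 1, 72 against 36 h after SE had 1 (Gabrd) and the difference between 72 and 36 h had 0. The Gabrb2 call for Ctr 72 h against Ctr 12 h was lost (0) with library size scaling, without the RUVr factor, with limma-voom, with only the groups compared and under both library alternatives, and that against Ctr 36 h (0) with limma-voom and both library alternatives; with the range of sample numbers it had adjusted p of 0.0909 and 0.081. The cause was not tested.

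With each library left out in turn, the count ran from 2 to 3 at 12 h (2 without Ctr 12 h replicate 3), 5 to 6 at 36 h, 1 to 3 at 72 h (1 without SE 72 h replicate 1), 1 to 1 at 6 h and 5 to 6 at 24 h. It was 1 throughout for 24 against 12 h and for the difference between 36 and 12 h, 2 to 3 for that between 72 and 12 h, 0 to 1 for that between 72 and 36 h (0 without Ctr 72 h replicate 2), and 0 to 1 for Ctr 72 h against Ctr 12 h or Ctr 36 h.

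Pairing of libraries by replicate number was neither shown nor excluded. Over 9 same-numbered SE and control pairs, deviations from the group means had r from -0.201 to 0.181, with 4 of 9 over 0.1. Of 18 libraries, 11 correlated best with their own number, each among the 3 libraries of the other arm at its time. With a replicate block the counts were 3, 6 and 3 at 12, 36 and 72 h, 1 at 6 h, 6 at 24 h and 3 for the difference in effect between 72 and 12 h. Depth limits Gabrd most, at 37 to 51 reads per SE 36 h library.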
